A study of Mus musculus with 30 samples.

Results

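The thin filament genes described here are 10 genes of the cardiac and skeletal muscle contractile apparatus, found as the rows of the deposited count table whose gene symbol is Acta1, Actc1, Actn2, Tnni1, Tnni3, Tnnt1, Tnnt2, Tnnc1, Tpm1 or Tpm2. They are 10 of 55487 genes in the table, and all 10 passed the filter on low counts in both cohorts, Tnni1 only through the knockout libraries of the one and the PBS libraries of the other. All but Actn2 are actins, troponins or tropomyosins, and Actn2 encodes alpha-actinin 2, which crosslinks the filaments at the Z-disc. Poly(A) RNA of mouse heart was sequenced in 30 libraries, from hearts taken 8 weeks after surgery, which was transverse aortic constriction (TAC, a microclip of 0.016 or 0.018 inch on the aorta, which loads the heart with pressure) or a sham operation. Floxed Cpt1a mice without a knockout (FF_sham and FF_TAC) and mice with a cardiac-specific Cpt1a knockout (KO_sham and KO_TAC) gave 4 libraries per group. C57Bl/6 mice given PBS (PBS_sham and PBS_TAC) gave 3 per group, and C57Bl/6 mice given AAV9.Cpt1a (AAV_sham and AAV_TAC) gave 4 per group. The series' design text names that vector AAV9.cTNTN.Cpt1a, a name with the abbreviation of the cardiac troponin T gene, Tnnt2. The labels name no Cre driver, age or sex, and do not say which animal had which clip. They give no animal for a library, so p-values measure only the spread between these libraries.

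Thin filaments are polymers of actin with tropomyosin lying along them and a troponin complex at regular intervals. Troponin C binds calcium, troponin I holds the filament off in its absence, and troponin T ties both to tropomyosin, which moves and lets myosin bind. Several of these proteins exist as a cardiac form and a form better known from slow skeletal or fetal heart muscle, and re-expression of skeletal alpha-actin in loaded rodent ventricle is a textbook part of the fetal gene program. Acta1 (skeletal alpha-actin), Tnni1 (slow skeletal troponin I), Tnnt1 (slow skeletal troponin T) and Tpm2 (beta-tropomyosin) are such alternative forms. Actc1, Tnni3, Tnnt2 and Tpm1 (alpha-tropomyosin) are the main adult cardiac forms, and Tnnc1 encodes the troponin C of both heart and slow skeletal muscle.

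The promoters of 4 genes are shown because the actins and the troponin genes Tnnt2 and Tnnc1 carry letter patterns often discussed for muscle genes. Each run gives the 250 bases before the RefSeq start site (GRCm38.p6), 5′ to 3′ on the gene's strand, and capitals mark the pattern found on either strand.
Acta1 (chr8:123894776-123895025, - strand; a CArG box, then an M-CAT and a TATA pattern): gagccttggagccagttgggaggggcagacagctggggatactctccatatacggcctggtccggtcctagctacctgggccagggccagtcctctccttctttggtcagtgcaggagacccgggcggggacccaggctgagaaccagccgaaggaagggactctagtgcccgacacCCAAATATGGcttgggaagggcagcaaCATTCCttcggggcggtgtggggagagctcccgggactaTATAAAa
Actc1 (chr2:114052876-114053125, - strand; a CArG box): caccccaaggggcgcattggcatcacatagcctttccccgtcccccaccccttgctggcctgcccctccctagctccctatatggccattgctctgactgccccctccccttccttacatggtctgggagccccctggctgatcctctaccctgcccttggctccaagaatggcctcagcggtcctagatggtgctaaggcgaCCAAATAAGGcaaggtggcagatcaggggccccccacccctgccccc
Tnnt2 (chr1:135836084-135836333, + strand; an M-CAT pattern): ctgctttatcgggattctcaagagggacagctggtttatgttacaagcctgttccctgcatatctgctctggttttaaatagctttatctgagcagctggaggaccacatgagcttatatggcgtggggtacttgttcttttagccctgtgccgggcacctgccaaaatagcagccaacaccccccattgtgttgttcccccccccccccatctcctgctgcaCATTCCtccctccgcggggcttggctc
Tnnc1 (chr14:31208062-31208311, + strand; an M-CAT pattern on the opposite strand): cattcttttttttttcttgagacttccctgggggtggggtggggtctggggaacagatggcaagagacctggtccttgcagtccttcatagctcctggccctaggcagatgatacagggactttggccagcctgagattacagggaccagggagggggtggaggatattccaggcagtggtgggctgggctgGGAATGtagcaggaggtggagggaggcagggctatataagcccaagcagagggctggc

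Both striated actin promoters held a CArG box, the motif known to be bound by serum response factor, at 64 to 73 bases before the start in Acta1 and 38 to 47 in Actc1. None of the other 8 members held one in this window, and 1.47% of 32851 mouse promoters of the same length did. The M-CAT pattern CATTCC, known to be bound by TEAD factors, stood in Acta1, Tnnc1, Tnnt2 and Tpm1, against 12.6% of all promoters. The TATA pattern TATAAA stood in Acta1 and Tnnt1, against 12.4%. No match overlapped one of another motif. A MEF2 box was found in 0 of 10 members and in 0.508% of all promoters. These are letter matches only, since no binding was measured. Acta1 lies on chromosome 8 (123891769 to 123894751, minus strand) and Actc1 on chromosome 2 (114047282 to 114053548, minus strand) of GRCm38. Their coding sequences of 1134 bases differ at 157 bases (86.2% identity), the longest identical run being 29 bases, and no 100-base stretch of any member's transcripts was found in transcripts of another gene. The troponin I and T members lie in pairs. Tnni1 and Tnnt2 are 25364 bases apart on chromosome 1, with Lad1 between them. Tnnt1 and Tnni3 are 1922 bases apart on chromosome 7, and Tnnc1 lies alone on chromosome 14. Tnni3 shares 86 exonic bases with Dnaaf3 on the same strand, so its counts are slightly uncertain.

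Total counts per library ran from 14839758 to 22070373, and the 10 genes held 1.89% to 6.37% of them. The deleted gene did not follow the labels in 3 libraries. Cpt1a was at 46.2 CPM (counts scaled to library size) in the library labelled KO_sham 2, inside the FF_sham range, and at 20.3 and 16.2 in the libraries labelled FF_TAC 2 and FF_TAC 3, against 20.3 to 23.6 in the other 3 KO_sham libraries. Whether samples were exchanged was not tested. In the C57Bl/6 mice Cpt1a was at 56.3 to 88.3 CPM in AAV_sham and 37.4 to 68.0 in PBS_sham. After TAC it was at 44.8 to 62.6 CPM with the vector and 40.2 to 61.5 with PBS. Both pairs of ranges overlapped, so higher Cpt1a with the vector was not shown library by library. Ventricular markers were abundant throughout (5 of 5 genes, summed 16806 to 48798 CPM). The lowest sum was in PBS_sham 3, which had 2041 CPM of smooth muscle markers against 232 to 555 elsewhere. Atrial markers (5 genes) ran from 1.44 to 8470 CPM, the highest being KO_TAC 1. Haemoglobin transcripts were under 100 CPM in 7 libraries, namely FF_TAC 2, FF_TAC 3, KO_sham 2 and all 4 KO_TAC, whose early response genes such as Fos summed to 2192 to 5785 CPM against 220 to 1104 elsewhere. In these bulk samples, fewer cells of a type and less RNA per cell cannot be told apart.

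Acta1 had a higher mean after TAC in all 4 arms, and its highest library stood 193 times above its lowest, the largest such ratio among the 9 members detected in every library. Its level was 268, 237, 1188 and 134 CPM in FF_sham libraries 1 to 4 and 737, 6904, 5781 and 4207 CPM in FF_TAC. In the knockout it was 371, 533, 288 and 371 CPM in KO_sham and 1133, 5146, 3626 and 7196 CPM in KO_TAC. FF_TAC 1 lay below FF_sham 3, so the floxed groups overlapped, whereas the knockout groups did not. In the C57Bl/6 mice given PBS, Acta1 was at 299, 162 and 106 CPM after sham and 3359, 2359 and 5049 CPM after TAC. With AAV9.Cpt1a it was at 44.9, 923, 263 and 141 CPM after sham and 3214, 8666, 1811 and 2688 CPM after TAC. Neither of these pairs of groups overlapped. Over both cohorts, 14 of 15 TAC libraries exceeded every sham library of their own arm, FF_TAC 1 being the exception. Such counts of libraries, here and for other members below, were not made over all genes. Means were 457 ± 491 CPM in FF_sham and 4407 ± 2685 CPM in FF_TAC, 391 ± 103 in KO_sham and 4275 ± 2555 in KO_TAC (SD, n = 4 each). They were 189 ± 98.9 in PBS_sham and 3589 ± 1360 in PBS_TAC (SD, n = 3), and 343 ± 397 in AAV_sham and 4095 ± 3102 in AAV_TAC (SD, n = 4). Relative to the median of its own sham group, the level in TAC libraries ran from 2.92 times in FF_TAC 1 to 42.9 times in AAV_TAC 2.

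**Figure D1:**
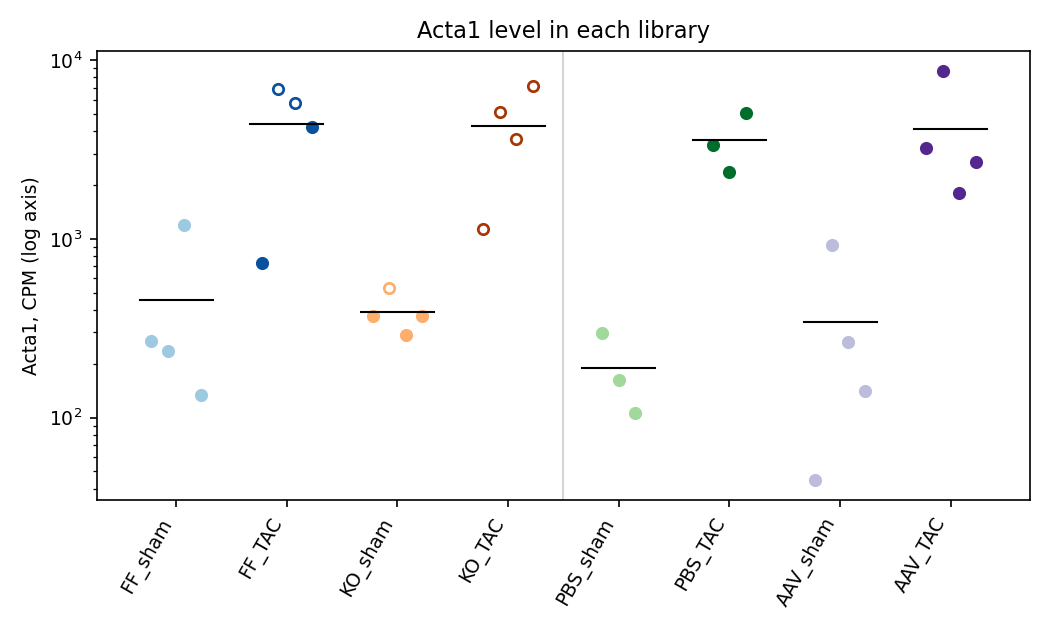
Acta1 level (CPM, log axis) in each of the 30 libraries by group, with a line at the group mean. Open points are the 7 libraries with haemoglobin transcripts under 100 CPM. All TAC libraries but FF_TAC 1 (737 CPM) lie above every sham library of their arm.

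Acta1 rose in KO_TAC against KO_sham (log2 fold change 3.45, standard error SE 0.76, adjusted p = 0.00666) in the quasi-likelihood test of edgeR, with p adjusted by Benjamini-Hochberg over all genes tested. It passed in each of the 8 fits that left out 1 library of these groups (3.07 to 3.76, edgeR adjusted p 0.00187 to 0.0249), and without the 3 libraries whose Cpt1a went against their labels (3.63, edgeR adjusted p = 0.0123). Without those libraries FF_TAC is left with 737 and 4207 CPM, and the floxed difference was 2.44 (SE 0.83, edgeR adjusted p = 1). The test did not pass Acta1 in FF_TAC against FF_sham (3.27, SE 0.75, adjusted p = 0.328), in PBS_TAC against PBS_sham (4.25, SE 0.95, adjusted p = 0.111) or in AAV_TAC against AAV_sham (3.58, SE 0.80, adjusted p = 0.174). The 4 log2 fold changes ran from 3.27 to 4.25, and their unadjusted p ran from 0.000365 to 0.000555. The adjusted p also depends on how many other genes changed, and 25.8% of 15596 genes were called in KO_TAC against KO_sham but 0% in FF_TAC against FF_sham. DESeq2, the other tool run, passed Acta1 in those 3 arms too, with adjusted p of 0.0027, 0.00289 and 0.00528. Without PBS_sham 1, edgeR passed it in the PBS arm as well (4.75, adjusted p = 0.0311). Differences between arms were small beside their errors. The knockout by TAC interaction for Acta1 was 0.18 (SE 0.97, adjusted p = 0.948), or 1.19 (SE 1.18, adjusted p = 0.588) without those 3 libraries, and the vector by TAC interaction was -0.67 (SE 1.10, adjusted p = 0.825), both by edgeR. These standard errors are too wide to show that the arms respond alike.

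The haemoglobin class was unevenly spread over the knockout groups. All 4 KO_TAC libraries and 1 of 4 KO_sham libraries were low in haemoglobin, and with a term for that class the KO_TAC against KO_sham difference was 2.67 (edgeR adjusted p = 0.146). Fitted within the low class, where KO_sham is only the library labelled KO_sham 2, whose Cpt1a went against its label and whose spread is assumed to be that of the others, it was 3.003 (edgeR adjusted p = 0.169). Within the haemoglobin-high class, FF_TAC 1 and 4 against the 4 FF_sham libraries gave 2.44 (edgeR adjusted p = 1). The part of this class in the result was not tested. The lowest TAC libraries of the floxed cohort differed in class, FF_TAC 1 being high and KO_TAC 1 low in haemoglobin. In the C57Bl/6 cohort every library was haemoglobin-high, and Acta1 ran from 44.9 to 8666 CPM.

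Cell type markers, those of ventricular cardiomyocytes included, also differed in KO_TAC, where the member calls lie. Ventricular markers summed to 25621 to 33283 CPM in KO_TAC against 35213 to 41511 CPM in KO_sham, and 3 of 5 (Pln, Myh6 and Ryr2) were called lower by edgeR. Fibroblast markers summed to 1686 to 1754 CPM against 948 to 1445 CPM, with 2 of 4 (Dcn and Col1a1) called higher. Endothelial markers summed to 407 to 578 CPM against 569 to 754 CPM, with 3 of 4 (Kdr, Cdh5 and Tie1) called lower. Of the smooth muscle, macrophage and atrial markers tested, 0 were called. Over all genes, 14.3% were called higher and 11.5% lower in this contrast. The part of the cell type markers in the member results was not tested.

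Fast skeletal muscle markers varied in level. Of 11 fast skeletal muscle markers, Myh4 was at 0 counts in 29 of 30 libraries, Tnnc2 in 25, Myh2 in 19 and Myh1 in 14. None of these 4 exceeded 0.218 CPM. Pvalb was at 0 counts in 9 libraries and Atp2a1 in 1, while Mylpf, Mybpc2, Tnnt3, Tnni2 and Actn3 were detected in all 30. The summed 11 markers were 17.0 to 80.0 CPM in sham and 31.3 to 96.8 CPM in TAC libraries. Mybpc2, at up to 74.6 CPM, was the most abundant of them, and no other marker exceeded 8.38 CPM (Atp2a1). The sum therefore gives Mybpc2 the most weight. The library highest in Acta1 also had the highest marker sum of its group in 6 of 8 groups, KO_TAC and PBS_TAC being the exceptions. The same held for Actn2 in 5 of 8. Such matches were not counted over all genes, and the part of these markers in the Acta1 result was not tested.

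Actc1, the cardiac alpha-actin, stayed within a narrow range. Leaving aside PBS_sham 3 at 921 CPM, it ran from 5571 CPM in the library labelled KO_sham 2 to 11769 CPM in KO_TAC 2. Its log2 fold change on TAC was 0.17 (SE 0.17) in the floxed, 0.31 (SE 0.17) in the knockout, 0.69 (SE 0.53) in the PBS and 0.22 (SE 0.46) in the AAV9.Cpt1a arm. None of the 4 passed edgeR's test, and without PBS_sham 3 the PBS value was 0.19 (SE 0.18). Within the haemoglobin-low class the knockout value was 0.86 and passed (edgeR adjusted p = 0.0476), against the single library labelled KO_sham 2. With level per kilobase of merged exons as the scale, Acta1 made up 1.56% to 11.4% of Acta1 plus Actc1 in FF_sham and 7.56% to 39.9% in FF_TAC. The share was 3.47% to 9.16% in KO_sham and 13.2% to 41.6% in KO_TAC. In the C57Bl/6 mice it was 2.57% to 10.8% (PBS_sham), 23.8% to 32.2% (PBS_TAC), 0.63% to 10.0% (AAV_sham) and 17.4% to 46.0% (AAV_TAC). Actc1 thus remained the larger of both actins in every library, and only FF_TAC 1 had a share within its sham range.

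**Figure D2:**
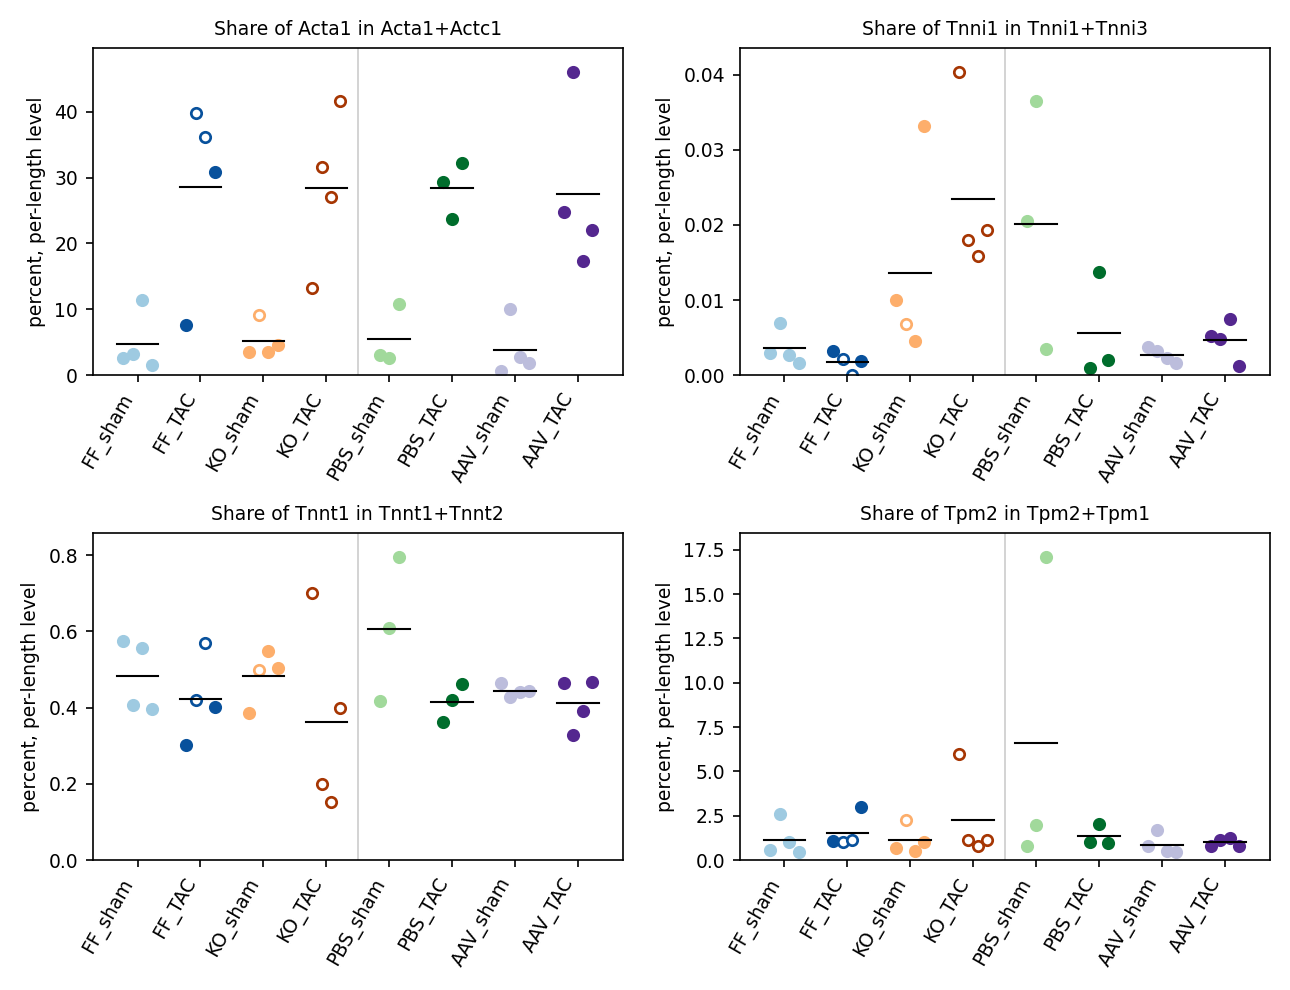
Share of the alternative form within each paralog pair, in percent of the per-kilobase level, by library and group, with lines at group means and open points for the 7 haemoglobin-low libraries. The Acta1 share separates TAC from sham in all arms but for FF_TAC 1 (7.56%), while Tnni1 reaches at most 0.0404% of its pair.

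Actn2 differed between groups by less than 2-fold. It was at 2151, 1964, 2252 and 2213 CPM in FF_sham and 2216, 2906, 2776 and 2450 CPM in FF_TAC. In the knockout it was at 1640, 2113, 1606 and 1720 CPM in KO_sham and 1909, 2342, 2519 and 2565 CPM in KO_TAC. Here the library labelled KO_sham 2 was higher than KO_TAC 1, so the groups overlapped. Actn2 rose in KO_TAC against KO_sham (log2 fold change 0.40, SE 0.12, edgeR adjusted p = 0.028). Leaving out 1 library ended that call in 6 of 8 fits (without KO_sham 1, 3 or 4, or KO_TAC 2, 3 or 4), with adjusted p of 0.0516 to 0.0840. It was also lost with the haemoglobin term (0.17, edgeR adjusted p = 0.476) and without a filter on low counts (0.38, edgeR adjusted p = 0.0823). In Actn2, 12 of the 15 TAC libraries exceeded every sham library of their arm, and such a count was not made over all genes. In PBS_TAC it was at 2585, 2411 and 2617 CPM, above the 3 PBS_sham libraries at 2246, 1826 and 541 CPM, and the difference was 0.72 (SE 0.35, edgeR adjusted p = 0.286). Without PBS_sham 3 it was 0.32 (SE 0.11, edgeR adjusted p = 0.226). In the AAV9.Cpt1a arm it was 1952 to 2317 CPM after sham and 2313 to 2800 CPM after TAC (0.22, SE 0.30, edgeR adjusted p = 0.982).

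Over the 10 members, 2 were called higher (Acta1 and Actn2) and 0 lower in KO_TAC against KO_sham, against 14.3% and 11.5% of all genes called in these directions. The members' median log2 fold change there was 0.44, against 0.02 over all genes tested. In FF_TAC against FF_sham edgeR called 0 members and DESeq2 called 1, and the median was 0.11 against -0.01 for all genes. Acta1 and Actn2 had an unadjusted edgeR p under 0.05, as did 11.1% of all genes. In PBS_TAC against PBS_sham edgeR called 0 (0.0318% of all genes were called, 5 genes, but 1796 without PBS_sham 1) and DESeq2 called 1. There 2 of 10 members (Acta1 and Tnni1) had an unadjusted edgeR p under 0.05, close to the 18.5% of all genes. In AAV_TAC against AAV_sham edgeR called 0 (0.00635% of all genes) and DESeq2 called 1. Acta1 was the 1 of 10 members under an unadjusted edgeR p of 0.05, against 7.05% of all genes. The non-overlapping members were Acta1 in KO_TAC (11.1% of all genes were higher without overlap), Acta1 and Actn2 in PBS_TAC (8.11%) and Acta1 in AAV_TAC (4.9%). FF_TAC had none (2.74%).

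**Figure D3:**
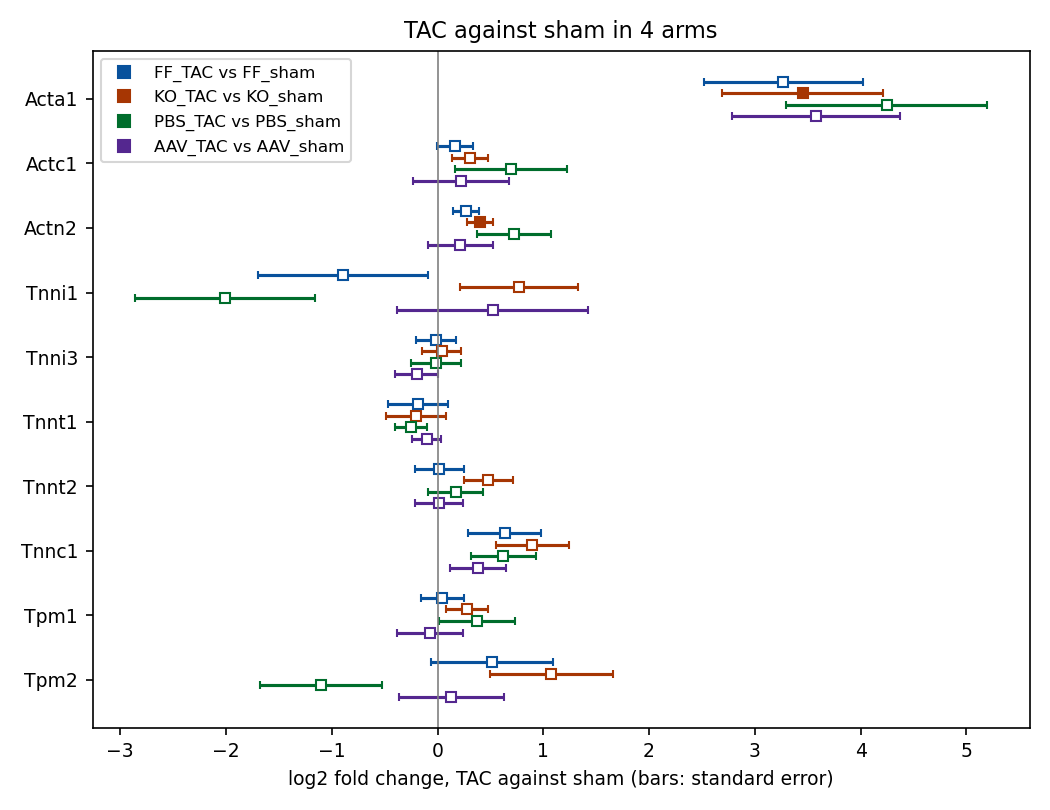
Log2 fold change of TAC against sham with its standard error for the 10 members in the 4 arms, by edgeR. Filled squares passed an adjusted p of 0.05, which holds for Acta1 (3.45) and Actn2 (0.40) in the knockout arm, and Acta1 stands far to the right of the other 9 members in each arm.

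Tnnc1 had a positive difference on TAC in all 4 arms and passed in none with all libraries by edgeR. Its level was 2581, 1729, 2255 and 2094 CPM in FF_sham and 2283, 4822, 3501 and 2854 CPM in FF_TAC. It was 2743, 1785, 2670 and 2345 CPM in KO_sham and 1727, 7973, 4809 and 3257 CPM in KO_TAC. KO_TAC 2 was the highest of all 30 libraries and KO_TAC 1 was below every KO_sham library. The difference was 0.64 (SE 0.35, edgeR adjusted p = 0.498) in the floxed and 0.90 (SE 0.35, edgeR adjusted p = 0.0673) in the knockout arm. Without KO_TAC 1 the knockout value was 1.15 and passed (edgeR adjusted p = 0.00574), and DESeq2 passed it with all libraries (0.91, adjusted p = 0.0322). After PBS, Tnnc1 was 1038 to 2720 CPM with sham surgery and 2236 to 3694 CPM with TAC (0.62, SE 0.31, edgeR adjusted p = 0.291), and without PBS_sham 1 the difference was 1.05 and passed (edgeR adjusted p = 0.0397). With the vector it was 1809 to 2389 CPM after sham and 2335 to 3179 CPM after TAC (0.38, SE 0.27, edgeR adjusted p = 0.866). Over both cohorts, 10 of 15 TAC libraries exceeded every sham library of their arm and 1 lay below, without a count over all genes.

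Tnnt2 and Tnni3, the cardiac troponins T and I, differed little on TAC. Tnnt2 ran from 8653 to 13565 CPM in all but 3 libraries, namely PBS_sham 3 (5808 CPM), KO_TAC 2 (24056 CPM) and KO_TAC 3 (17076 CPM), and AAV_sham was at 11110 to 11715 CPM. Its differences on TAC were 0.02, 0.48, 0.17 and 0.01 in the floxed, knockout, PBS and AAV9.Cpt1a arms, with SE of 0.23 to 0.26, and none passed. The knockout value passed without KO_TAC 1 (0.62, edgeR adjusted p = 0.0358) and without KO_TAC 4 (0.64, edgeR adjusted p = 0.0433). Tnnt2 in KO_TAC against FF_TAC was 0.50 (SE 0.23, edgeR adjusted p = 0.159), and without KO_TAC 1 it was 0.63 and passed (edgeR adjusted p = 0.0473). Tnni3 ran from 2609 CPM in PBS_sham 3 to 5730 CPM in KO_TAC 2. Unscaled, PBS_sham 3 had 65444 Tnni3 counts of 18072955 in total and KO_TAC 4 had 47328 of 16952352. Which library is lowest in Tnni3 thus depends on the TMM scaling. Tnni3 differences on TAC lay between -0.20 and 0.04 in the 4 arms, none passing. Of its 15 TAC libraries, 6 lay below and 2 above every sham library of their arm, again without a count over all genes. By TMM-scaled CPM, KO_TAC 2 had the highest Actc1, Tnnc1, Tnnt2, Tnni3 and Tpm1 of all 30 libraries. Unscaled, it had 156936 Actc1 counts of 14839758 in total and KO_sham 1 had 231976 of 20734227. The top library for Actc1 thus also depends on the scaling.

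**Figure D4:**
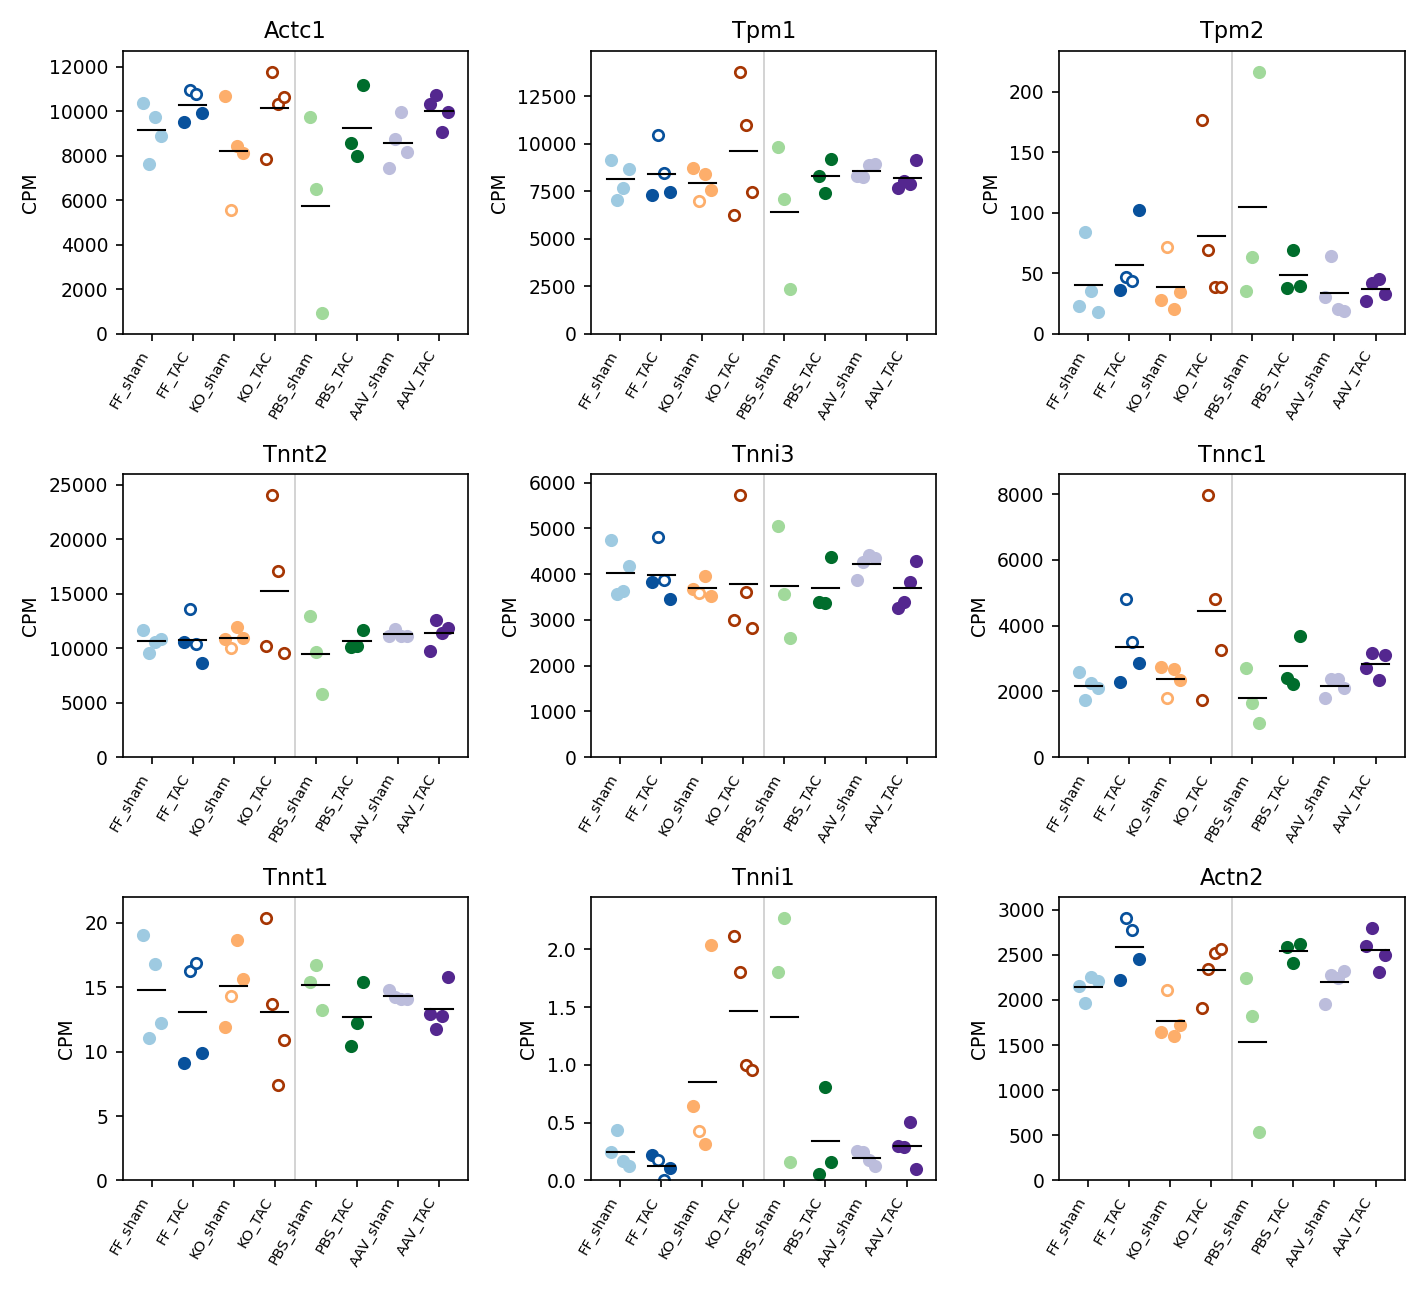
Levels of the other 9 members (CPM, linear axes from 0, each with its own scale) in every library, with lines at group means and open points for the 7 haemoglobin-low libraries. KO_TAC 2 tops the Tnnc1 panel at 7973 CPM, and PBS_sham 3 lies lowest for Actc1 (921 CPM), Tpm1 and Actn2.

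The skeletal troponins stayed rare. Tnnt1 was at 7.44 to 20.4 CPM over all libraries, and its differences on TAC were -0.18, -0.21, -0.25 and -0.10 in the 4 arms, none of which passed edgeR's test. Of the 15 TAC libraries, 9 lay below every sham library of their arm and 2 lay above, without a count over all genes. AAV_sham, to which AAV_TAC was compared, ran only from 14.1 to 14.8 CPM, and a fall on TAC was not shown. Per kilobase, Tnnt1 made up 0.153% to 0.795% of Tnnt1 plus Tnnt2.

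Tnni1 was at the edge of detection, with 0 to 43 counts per library. FF_sham had 4, 8, 3 and 2 counts and FF_TAC 4, 3, 0 and 2, where a count of 0 allows up to 3. KO_sham had 14, 7, 6 and 39 counts and KO_TAC 43, 24, 18 and 16, so every KO_TAC library exceeded every FF_TAC library. No FF library exceeded 8 counts, so in this cohort the gene passed the filter only through libraries of the knockout, where it is high. Tnni1 was higher in KO_TAC than FF_TAC (log2 fold change 3.44, SE 0.70, edgeR adjusted p = 0.00532), also with no filter on low counts (3.41, edgeR adjusted p = 0.00432). It was the 1 member called there, against 14.3% of all genes called and 7.53% called higher (6.8% lower), and the 1 without overlap, against 6.76%. Summed over libraries, 101 counts stood against 9, a ratio of 11.4 with a 95% exact binomial interval of 5.75 to 25.6, which covers counting error only. The difference passed edgeR's test in all 8 fits that left out 1 library of the compared groups (adjusted p 0.00564 to 0.0236). These refits and those that follow reuse the same libraries and the same filtered gene. They are not independent support for the call. The difference also passed with the haemoglobin term (4.07, edgeR adjusted p = 0.0105) and with an atrial covariate, the level of Myl7 alone (3.24, edgeR adjusted p = 0.00309). Without the 3 libraries whose Cpt1a went against their labels it passed as well (3.09, edgeR adjusted p = 0.019). Within the haemoglobin-low class it was 3.91 (edgeR adjusted p = 0.0457), but there the floxed arm is only FF_TAC 2 and 3, the libraries whose Cpt1a went against their label. In KO_TAC against KO_sham Tnni1 did not pass with all libraries, and it did without KO_sham 4 (1.64, edgeR adjusted p = 0.0490). The same contrast in sham hearts was 1.77 (SE 0.65, edgeR adjusted p = 0.9), and the interaction was 1.66 (SE 0.98, adjusted p = 0.477), so a difference between the surgeries in the genotype contrast was not shown. In the C57Bl/6 mice Tnni1 had 33, 41 and 4 counts in PBS_sham, 1, 14 and 3 in PBS_TAC, and with the vector 2 to 5 after sham and 2 to 8 after TAC. The differences of -2.01 for PBS_TAC against PBS_sham and -2.75 for AAV_sham against PBS_sham did not pass (edgeR adjusted p = 0.240 and 0.152), PBS_sham 1 and 2 being the high libraries. At its highest Tnni1 was 0.0404% of Tnni1 plus Tnni3 per kilobase.

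Tpm1 ran from 6230 to 13780 CPM except in PBS_sham 3 (2343 CPM), and its differences on TAC were 0.05, 0.28, 0.37 and -0.07, none passing. Tpm2 made up 0.456% to 17.1% of Tpm2 plus Tpm1 per kilobase and was uneven within groups. Its levels were 23.1, 84.2, 35.2 and 17.9 CPM in FF_sham, 36.1, 47.3, 43.4 and 102 CPM in FF_TAC, 27.7, 72.0, 20.3 and 34.4 CPM in KO_sham and 177, 69.6, 39.1 and 39.1 CPM in KO_TAC. FF_sham 2, FF_TAC 4, the library labelled KO_sham 2 and KO_TAC 1 were the highest of their groups, and the sham and TAC ranges overlapped in both genotypes. After PBS, Tpm2 was at 35.5, 63.4 and 217 CPM with sham surgery and 38.3, 69.6 and 39.3 CPM with TAC. With the vector it was at 18.9 to 64.7 CPM after sham and 27.6 to 45.6 CPM after TAC. No Tpm2 difference passed edgeR's test (1.07, SE 0.58, adjusted p = 0.175 in KO_TAC against KO_sham), although with an atrial covariate that value was 1.12 and passed (adjusted p = 0.0424), and without KO_TAC 1 it was 0.34 (adjusted p = 0.620). Tpm2 in AAV_sham against PBS_sham was -1.64 (SE 0.53, edgeR adjusted p = 0.164). It was -0.55 without PBS_sham 3 and -2.04 without PBS_sham 1, where it passed (edgeR adjusted p = 0.0235).

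The libraries highest in Tpm2 or Tnni1 often had the most atrial markers. The top Tpm2 library of a group was also its top atrial library in 6 of 8 groups. The same held for the top Tnni1 library in 6 of 8, where a few reads can decide the rank. FF_TAC 1 led with 4 Tnni1 counts against 3 in FF_TAC 2, and AAV_TAC 3 with 8 against 6 in AAV_TAC 1. Each of these genes also matched the top smooth muscle library in 4 of 8 groups. Matches with these markers were not counted over all genes. KO_TAC 1, with 8470 CPM of atrial markers, led both genes in its group. PBS_sham 3, highest in Tpm2, was the library with the most smooth muscle markers. FF_TAC 4, at 102 CPM of Tpm2, had 1.77 CPM of atrial markers. In KO_TAC 2, 3 and 4, Tnni1 was at 0.95 to 1.80 CPM with atrial markers at 3.69 to 7.33 CPM. FF_TAC had at most 0.219 CPM of Tnni1, with atrial markers at 1.77 to 2.23 CPM in FF_TAC 2, 3 and 4 and 202 CPM in FF_TAC 1. How much atrial tissue adds to either gene was not tested beyond the covariate given above, which is the level of Myl7 and not the marker sum.

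**Figure D5:**
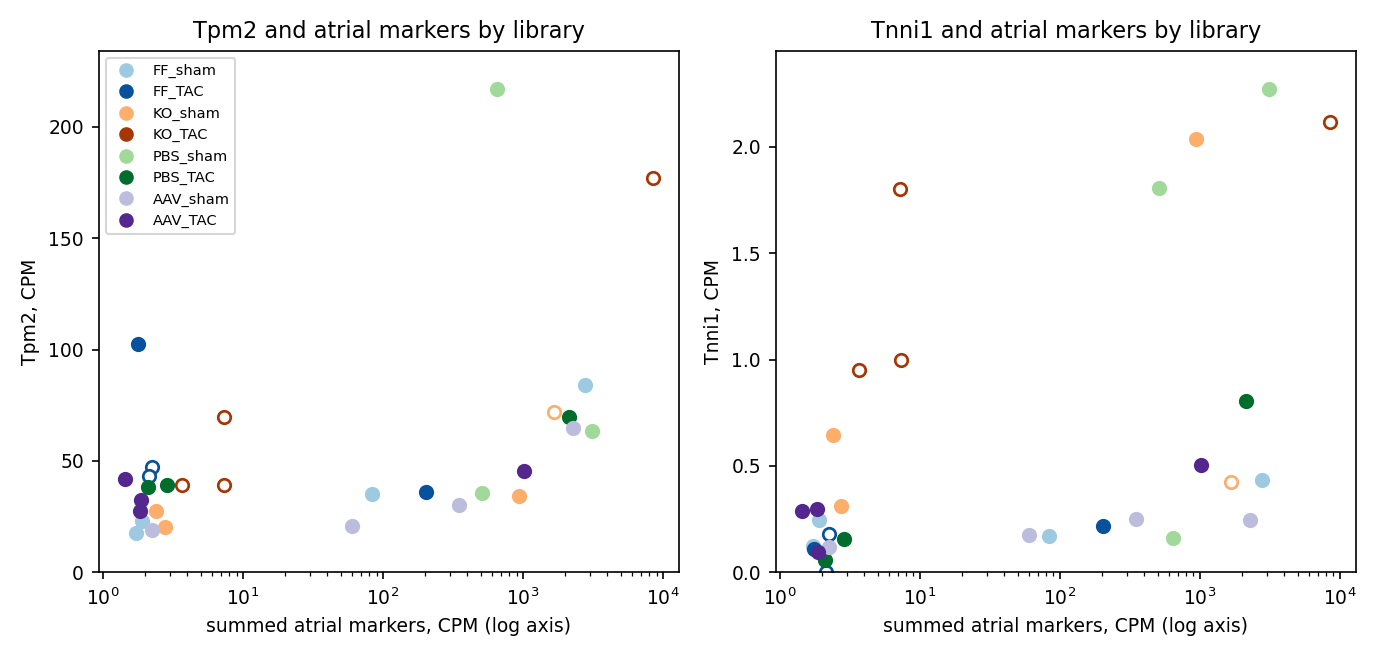
Tpm2 and Tnni1 levels (CPM, linear axes) against the summed 5 atrial markers (CPM, log axis) in the 30 libraries, coloured by group, with open points for the 7 haemoglobin-low libraries. KO_TAC 1 has the most atrial markers (8470 CPM), and the other 3 KO_TAC libraries have Tnni1 near or above 0.95 CPM with under 8 CPM of atrial markers. FF_TAC libraries have at most 0.219 CPM of Tnni1 with 1.77 to 202 CPM of atrial markers.

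The remaining contrasts called 0 members with all libraries. In KO_sham against FF_sham edgeR called 0 of 10 (0% of all genes), and DESeq2 also called 0. Actn2 at -0.28 and Tnni1 at 1.77 had an unadjusted edgeR p under 0.05, against 5.22% of all genes. Acta1 was -0.22 there (SE 0.69), but 0.87 without FF_sham 3. Acta1 was -0.04 (SE 0.69) in KO_TAC against FF_TAC, 0.86 (SE 0.80) in AAV_sham against PBS_sham and 0.19 (SE 0.78) in AAV_TAC against PBS_TAC, none passing. edgeR and DESeq2 called 0 members in AAV_sham against PBS_sham (0.0127% of all genes by edgeR, 2 genes, but 2821 without PBS_sham 1). There 2 of 10 members (Tnni1 and Tpm2) had an unadjusted edgeR p under 0.05, close to the 20.7% of all genes. In AAV_TAC against PBS_TAC both tools called 0 (0.0381% by edgeR). No member was under an unadjusted edgeR p of 0.05 there, against 3.19% of all genes. In the knockout interaction both tools called 0 (0.0449%, 7 genes, but 825 without the 3 libraries whose Cpt1a went against their labels). The vector interaction had 0 calls by both as well (0.00635%). No member was under an unadjusted edgeR p of 0.05 in these interactions, against 13.1% and 6.95% of all genes.

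The order of levels within a library can be given only per length, and it depends on the length used. In FF_sham, level per kilobase of merged exons was 5656 for Actc1, 2080 for Tnnc1, 1954 for Tnni3, 1374 for Tnnt2, 1256 for Tpm1, 565 for Actn2, 297 for Acta1, 13.8 for Tpm2, 6.72 for Tnnt1 and 0.0676 for Tnni1. With the longest principal transcript (1200 bases for Tnnt2, against 7752 of merged exons), Tnnt2 came first at 8875 and Actc1 second at 6213. Tnnc1 and Tnni3 lay close to each other in the first order, as did Tnnt2 and Tpm1. In FF_TAC Acta1 had moved up from rank 7 to rank 3 by merged exons, at 2869, but only from rank 7 to rank 6 by principal transcript, at 3048. FF_TAC 1 itself was at 480 per kilobase of merged exons, within the FF_sham range.

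Genes that regulate, cap or accompany the filament were described as a list of 41, of which 39 (floxed cohort) and 40 (C57Bl/6 cohort) were tested. In KO_TAC against KO_sham 13 were called higher and 3 lower, with a median log2 fold change of 0.44, against 14.3% higher, 11.5% lower and a median of 0.02 over all genes. With the haemoglobin term the calls over all genes fell from 4031 to 273. The filament-binding Xirp2 (Xin repeat protein of the intercalated disc) rose by 2.16 (SE 0.38, edgeR adjusted p = 0.00254), the non-muscle alpha-actinin Actn1 by 0.95 (adjusted p = 0.000619) and the fast skeletal Tnnt3 by 1.46 (adjusted p = 0.00358, at 1.96 to 4.87 CPM in KO_TAC). Of the 4 genes listed as Srf and its cofactors, 1 (Srf) was called higher and 0 lower, and their median was -0.007. Srf was at 60.9 to 88.0 CPM in KO_sham and 91.0 to 124 CPM in KO_TAC. Its value with the haemoglobin term is not given here. In KO_TAC against FF_TAC 4 of these were called higher and 3 lower, against 7.53% higher and 6.8% lower over all genes. They include Actn1 at 0.88, Tnnt3 at 1.70 and the pointed-end cap gene Tmod4 at -0.99. Xirp2 was 1.505, 1.81 and 1.37 in the floxed, PBS and AAV9.Cpt1a arms and did not pass there. By edgeR none of the list passed in the other 8 contrasts.

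Profiles over the 30 libraries were compared by the root mean square difference of z-scored log2(CPM + 1) among 15300 genes. The genes most like Acta1 were Nlrc3 (0.304), Cnksr1 (0.305) and Edn3 (0.347), against a median of 1.42 over all genes. Those most like Actc1 were Mtx2 (0.234), Pmpcb (0.268) and Rbbp7 (0.27). For Tnni1 the nearest were Shox2 (0.642), Rab33a (0.652) and Gcgr (0.668). Libraries share surgery, batch and tissue makeup, so this likeness is a description.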

How the data were processed

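Poly(A) RNA of heart was sequenced in 30 libraries, paired-end at 100 bases from 200 ng of RNA with an integrity number above 7, per the labels' protocols. The authors deposited 1 table of whole-number counts per gene and library, used as deposited. The submitters' processing notes name HISAT2 2.1.0, featureCounts, Subread 1.5.1 and GRCm38, with no role given. The annotation release, the strand setting and the handling of multiply mapped reads are not given in the sources used here. Symbols came from GENCODE release M21 for 55141 of 55487 identifiers, the rest holding 0.0192% of counts. Coordinates are from GENCODE and promoters from RefSeq (GRCm38.p6), both 1-based.

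Groups follow the genotype and treatment labels. The KO_TAC titles name sham as well as TAC, and the treatment label was used. Each cohort was fitted separately, using the quasi-likelihood test of edgeR 4.0.16 (R 4.3.3) on group means, TMM scaling, filterByExpr, and Benjamini-Hochberg adjustment over 15596 or 15745 genes. A gene was called at an adjusted p under 0.05. CPM are TMM-scaled, and per-length levels divide them by kilobases of merged exons. The atrial covariate was log2(CPM + 1) of Myl7 alone. The 10 comparisons and their alternatives (DESeq2 1.42.0, RLE size factors, no filter, a replicate block, an atrial covariate, a haemoglobin term and class, and leaving out each library) are in the closing section. Scripts were tested on simulated data. Members, gene lists and tests were chosen with earlier results of these data known. The named genes are the 10 members, up to 3 listed genes with the smallest p per comparison, and the 3 genes most like Acta1, Actc1 and Tnni1. Srf was named after its values were seen.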

Additional observations from a re-analysis of the deposited data

Results flagged for a closer look

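In 60 groups of 4 libraries (member by group), 3 had a highest library that stood apart from the others by more than Dixon's 95% limit on the gap to the next library. Chance alone gives about 1 in 20 groups, which is 3 of 60. Acta1 was 1188 CPM in FF_sham 3, against 268 CPM in the next library. Tnnt2 was 11715 CPM in AAV_sham 2, against 11161 CPM in the next, the group being narrow. Tpm2 was 102 CPM in FF_TAC 4, against 47.3 CPM in the next.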

How the results depend on the processing

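Member counts called by edgeR were compared with those under each alternative. In FF_TAC against FF_sham (0 in the reported fit) DESeq2 called 1. In KO_TAC against KO_sham (2) DESeq2 and the atrial covariate each gave 3, no filter 1 and the haemoglobin term 0. Leaving out 1 library there gave 1 to 4. The haemoglobin-low class holds only the library labelled KO_sham 2 from KO_sham, so its count is not compared. In KO_TAC against FF_TAC (1) leaving out 1 library gave 1 to 2. In PBS_TAC against PBS_sham (0) DESeq2 and no filter each called 1, and leaving out 1 library gave 0 to 2. In AAV_TAC against AAV_sham (0) DESeq2 and no filter each called 1. In AAV_sham against PBS_sham (0) leaving out 1 library gave 0 to 1. The causes were not tested. Leaving out the 3 libraries whose Cpt1a went against their labels (chosen after seeing the data) kept 2 members in KO_TAC against KO_sham and 1 in KO_TAC against FF_TAC.

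Acta1 changed sign in contrasts that did not pass. Without the 3 libraries chosen by Cpt1a it was 0.77 in KO_TAC against FF_TAC (reported -0.04), and with the atrial covariate 0.028. Leaving out 1 library gave -0.54 to 0.87 in KO_sham against FF_sham, -0.43 to 0.26 in KO_TAC against FF_TAC, -0.92 to 0.49 in the knockout interaction (1.19 without the 3), -0.34 to 1.36 in AAV_sham against PBS_sham, -0.48 to 0.52 in AAV_TAC against PBS_TAC and -1.34 to 0.53 in the vector interaction. The replicate numbers do not pair the libraries (17 of 43 same-number pairs correlated above 0.1, and 7 of 30 libraries correlated best with their own number). With a replicate block Acta1 was 0.065 in KO_sham against FF_sham and 0.078 in KO_TAC against FF_TAC, and no member's call changed.

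All-gene counts moved with the fit too. In KO_TAC against KO_sham (4031 called) the haemoglobin term gave 273, its low class 1022, and leaving out 1 library 1956 to 6440. In KO_TAC against FF_TAC (2235) they were 1127, 553 and 1126 to 3845, and 3663 without the 3 libraries chosen by Cpt1a. DESeq2 called 168 in FF_TAC against FF_sham (0), 370 in PBS_TAC against PBS_sham (5), 117 in AAV_TAC against AAV_sham (1), 373 in AAV_sham against PBS_sham (2) and 377 in the knockout interaction (7). Without PBS_sham 1 edgeR called 1796 in PBS_TAC against PBS_sham and 2821 in AAV_sham against PBS_sham, and without the 3 libraries chosen by Cpt1a 825 in the knockout interaction. That interaction had 215 calls without KO_TAC 1 and 102 without KO_TAC 4, and FF_TAC against FF_sham had 27 without FF_TAC 1. At the counts of Tnni1, depth limits any difference between groups of 0 to 8 counts.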
